A study of Mus musculus with 8 samples.

Results

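The genes described here are 10 members of 3 families of small calcium-, lipid- or sugar-binding proteins. They are the S100 genes S100a4, S100a6, S100a10 and S100a11, the annexin genes Anxa1, Anxa2, Anxa3 and Anxa5, and the galectin genes Lgals1 and Lgals3. The members were chosen by name, and all 10 were found among the 18990 genes of the deposited table. All 10 were also among the 13866 genes tested, which are those whose mean over the libraries is 1 CPM or more, CPM being reads scaled to the size of the library.

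The study asked how depletion of the corepressor NCOR1 and of the reprogramming factor OCT4 changes transcription early in reprogramming to pluripotency. Its cells were wild-type BL6 primary mouse embryonic fibroblasts (MEFs), transduced with the doxycycline-inducible tet-STEMCCA cassette, which carries Oct4, Sox2, Klf4 and c-Myc, and with rtTA, each at a multiplicity of infection of 1. The 8 libraries analysed here fall into 4 groups of 2 biological replicates, siNcor1 at day 3, siOct4 at day 3, siNcor1 at day 6 and siOct4 at day 6, with days counted under doxycycline. The siRNA pools were given at 40 nM before induction. All groups then shared a medium with 2 µg/mL doxycycline, 3 µM chiron (an inhibitor of GSK3), 0.25 µM Alk5i (an inhibitor of TGFβ signalling), 50 µg/mL ascorbic acid and LIF, and libraries were made from 200 ng of RNA after ribosomal depletion. Libraries of the non-targeting control are not used here, and each comparison is between knockdowns or between days. The samples are bulk cultures, in which fewer cells of a type cannot be told apart from less RNA per cell.

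S100 proteins are small EF-hand proteins that mostly form dimers and, on binding calcium, attach to partner proteins of the cytoskeleton and membrane. Annexins bind acidic phospholipids in the presence of calcium and take part in membrane repair, vesicle traffic and the cell cortex, and several of them are held together in pairs by an S100 dimer, such as annexin A2 with S100A10 and annexin A1 with S100A11. Galectins bind beta-galactoside sugars on glycoproteins of the cell surface and matrix. Many of these genes are highly transcribed in fibroblasts and other mesenchymal cells.

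All coordinates are on GRCm38 (mm10), with gene models from GENCODE M21. The 4 S100 members lie on chromosome 3 on the plus strand, with S100a4 at chr3:90603771-90606045, S100a6 at chr3:90612882-90624181, S100a11 at chr3:93520488-93526287 and S100a10 at chr3:93555080-93564643. Anxa5 is also on chromosome 3, at chr3:36448923-36475894 on the minus strand. The other annexins are on separate chromosomes, with Anxa1 at chr19:20373428-20390944 (minus), Anxa2 at chr9:69453620-69491795 (plus) and Anxa3 at chr5:96793339-96845966 (plus). Lgals1 is at chr15:78926725-78930465 and Lgals3 at chr14:47367751-47386160, both on the plus strand.

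Promoter windows of RefSeq, which run from 250 bases before to 50 bases after an annotated start on GRCm38.p6, were matched by symbol for 7 of the 10 members (S100a4, S100a6, S100a11, Anxa1, Anxa2, Anxa5 and Lgals3). They were searched on both strands for TGANTCA (the letters bound by AP-1 factors, which drive many fibroblast genes), TATAAA (the TATA box), GGGCGG (a GC box) and GGAATG (the letters bound by TEAD factors). No match of a motif overlapped a match of another in these windows. TGANTCA was found in the windows of S100a11 and Anxa2, against 7.81% of all 32851 windows. TATAAA was found in those of S100a4, Anxa1 and Anxa2, against 13.6% of all. GGGCGG was found in those of S100a11, Anxa2 and Lgals3, against 35.7%, and GGAATG in that of Anxa1, against 14.7%. The bases upstream of the annotated exons are printed for the 3 members that hold TGANTCA or TATAAA there, 5′ to 3′ on the plus strand, with those matches in capitals.
S100a4, chr3:90603520-90603769: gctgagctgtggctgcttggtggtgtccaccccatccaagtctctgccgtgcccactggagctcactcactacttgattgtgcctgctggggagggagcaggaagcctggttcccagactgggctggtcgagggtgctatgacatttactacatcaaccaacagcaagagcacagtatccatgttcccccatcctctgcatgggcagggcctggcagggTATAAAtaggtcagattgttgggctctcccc
S100a11, chr3:93520246-93520487: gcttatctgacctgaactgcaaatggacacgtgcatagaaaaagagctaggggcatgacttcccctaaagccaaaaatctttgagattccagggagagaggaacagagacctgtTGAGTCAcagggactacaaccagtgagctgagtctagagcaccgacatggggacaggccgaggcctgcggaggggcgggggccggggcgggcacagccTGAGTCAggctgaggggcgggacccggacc
Anxa2, chr9:69453433-69453619: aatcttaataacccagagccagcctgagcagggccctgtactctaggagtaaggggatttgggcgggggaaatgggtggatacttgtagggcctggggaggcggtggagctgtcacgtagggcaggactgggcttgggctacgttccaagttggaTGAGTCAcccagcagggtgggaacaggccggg
In S100a4 the TATAAA match begins at base -31 from the start, and in S100a11 the TGAGTCA matches begin at bases -136 and -38. The match in Anxa2 begins at base -95. A match describes the letters and does not show that a factor was bound, which these data did not measure.

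The depth was between 7735742 and 16445192 reads on genes per library, and 3 reads correspond to between 0.174 and 0.380 CPM. The share of the non-coding gene Gm26917 was in a range of 15.5% to 16.6% at day 3 and in one of 20.3% to 29.1% at day 6. Ncor1 was at 135 and 146 CPM in siNcor1 at day 3 against 226 and 245 CPM in siOct4, and at day 6 the knockdowns overlapped. Pou5f1, the gene of OCT4 that the cassette also carries, was at 185 and 197 CPM in siOct4 at day 3 against 197 and 205 CPM in siNcor1, a log2 difference of -0.08 with an adjusted p of 0.941. At day 6 it was at 700.1 and 501 CPM against 187 and 160 CPM, so it was higher in siOct4, and these libraries are called the libraries labelled siOct4 below. From RT-qPCR over time, the paper reports that Oct4 mRNA was silenced early and soon recovered. It ascribes the recovery to strong expression from the cassette. All 10 fibroblast markers examined, among them Col1a1, Thy1 and Pdgfrb, were over 1 CPM in every library, as the label of the cells states.

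In reads, the 10 members together took 0.336% and 0.294% of the library in siNcor1 at day 3, 0.393% and 0.339% in their counterparts labelled siOct4, and 0.341% and 0.333% in siNcor1 at day 6. In the libraries labelled siOct4 at day 6 they took 0.194% and 0.240%. These last libraries were lower than the other 6 and did not overlap with them, also when Gm26917 was left out of the totals (0.274% and 0.315% against between 0.351% and 0.469%).

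The S100 members differ by more than an order of magnitude in reads. S100a4, which binds non-muscle myosin and is widely used as a fibroblast marker, was the lowest of the members, at 10.5 and 9.05 CPM in siNcor1 at day 3, 19.4 and 10.9 CPM in those labelled siOct4 at day 3, 18.1 and 14.8 CPM in siNcor1 at day 6, and 8.77 and 11 CPM in those labelled siOct4 at day 6. With a mean of 12.8 CPM as counted it ranked 8593 of 18990 genes by mean CPM. Its level is uncertain, because reads may be shared with another gene model on the same strand, described below. Its 3 highest libraries were both of siNcor1 at day 6 and 1 of those labelled siOct4 at day 3. S100a6, or calcyclin, was at 713 and 542 CPM in siNcor1 and 788 and 613 CPM in the libraries labelled siOct4 at day 3, and at 630.5 and 562 CPM against 277 and 358 CPM at day 6. Only the pair labelled siOct4 at day 6 lay apart from the other 6 libraries, below them.

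S100a10 does not bind calcium itself and is held in a complex with annexin A2. It was at 180.2 and 182 CPM in siNcor1 and 178 and 142 CPM in the libraries labelled siOct4 at day 3, and at 333 and 310.3 CPM against 357 and 444 CPM at day 6. All 4 libraries of day 6 were higher than all 4 of day 3, a pattern that no other member had. S100a11, a partner of annexin A1, was at 141 and 74.9 CPM in siNcor1 and 152 and 109 CPM in the libraries labelled siOct4 at day 3, and at 80.8 and 71.9 CPM against 39.0 and 49.4 CPM at day 6. Its siNcor1 replicates of day 3 lay far apart, and the lower of these overlapped with the siNcor1 libraries of day 6.

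Among the annexins, Anxa1, whose protein acts on formyl peptide receptors and restrains phospholipase A2, was at 385 and 350.1 CPM in siNcor1 and 544 and 512 CPM in the libraries labelled siOct4 at day 3, and at 234 and 284 CPM against 109 and 226 CPM at day 6. Its 4 groups did not overlap with each other, although the replicates labelled siOct4 at day 6 lay far apart. Anxa2, which joins membranes to actin and binds plasminogen with S100A10, was at 679 and 654 CPM against 788 and 691 CPM at day 3, with siNcor1 named first, and at 698 and 674 CPM against 473 and 491 CPM at day 6. It stayed within a narrow range in the other 6 libraries and was lower in the pair labelled siOct4 at day 6.

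Anxa3 was at 132 and 94.5 CPM in siNcor1 and 110.2 and 116 CPM in the libraries labelled siOct4 at day 3, and at 56.8 and 59.5 CPM against 20.8 and 28.1 CPM at day 6. It had the widest range of the 10 members, 2.66 on the log2-cpm scale, and every library of day 6 was lower than every library of day 3. Anxa5, which binds exposed phosphatidylserine, was at 325 and 285 CPM against 360.1 and 356 CPM at day 3, again with siNcor1 first, and at 191 and 168 CPM against 106 and 134 CPM at day 6. Like Anxa3 and Anxa1, it was lower in all 4 libraries of day 6 than in all 4 of day 3.

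Lgals1 encodes galectin-1, a dimer that cross-links surface glycoproteins. It was at 571 and 463 CPM in siNcor1 and 841 and 646 CPM in the libraries labelled siOct4 at day 3, and at 925 and 797 CPM against 497 and 515 CPM at day 6. The order of the knockdowns was therefore opposite on the 2 days, with no overlap on either. Such a lack of overlap was seen in 43.4% of all tested genes at day 3 and 64.7% at day 6. In the tests described below, the difference at day 3 was not past the threshold. Lgals3 encodes galectin-3, which carries a single sugar-binding domain with a tail through which it oligomerises, and was at 185 and 151 CPM against 175 and 128 CPM at day 3 and at 235 and 228 CPM against 151 and 185 CPM at day 6. The siNcor1 libraries of day 6 were higher than the other 6.

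**Figure D1:**
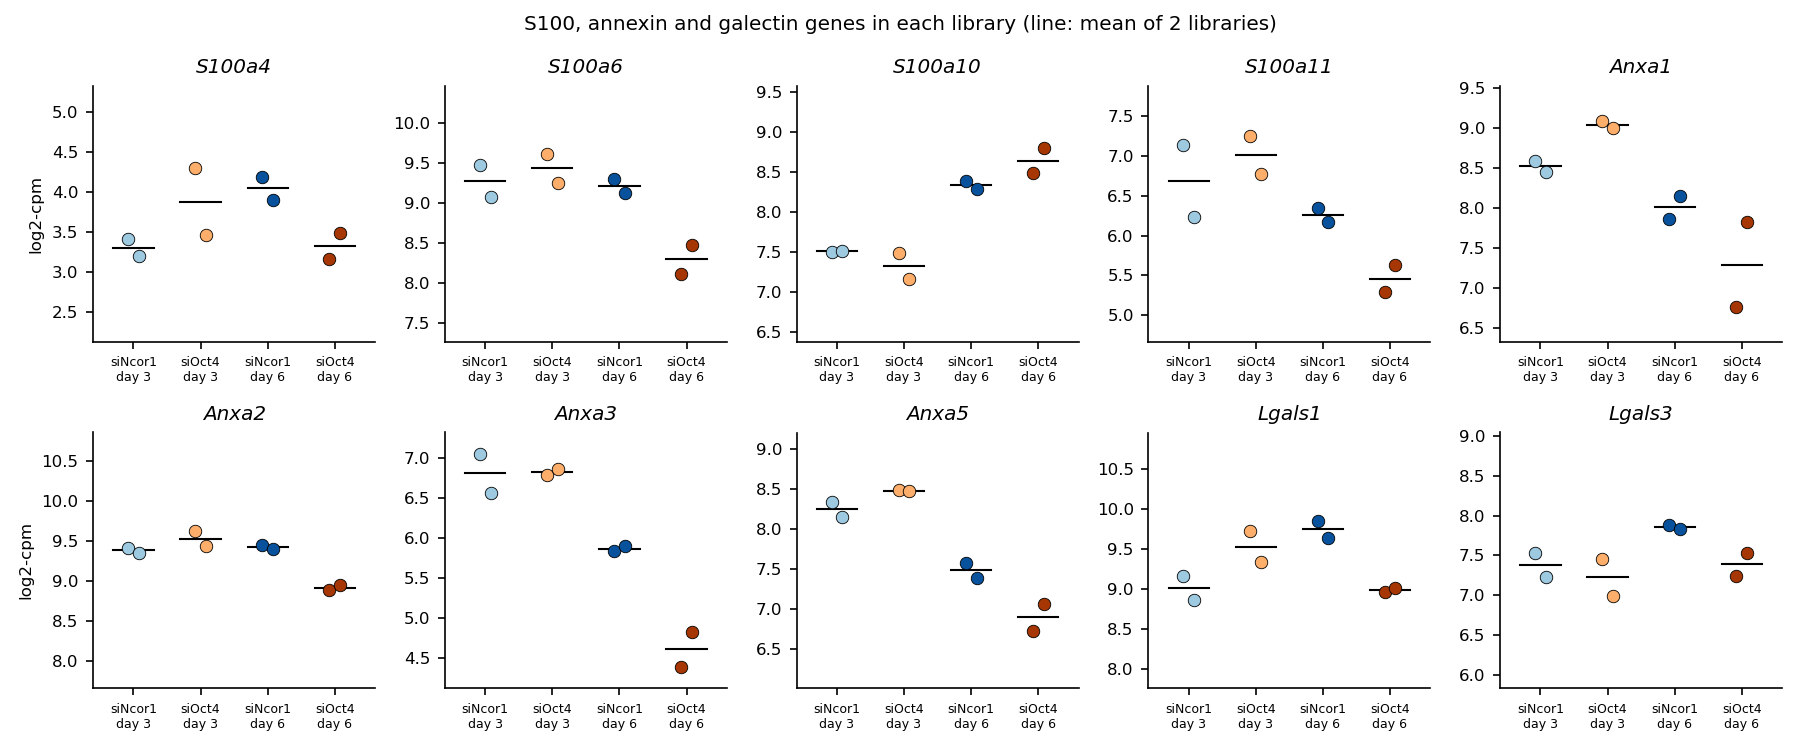
The deposited log2-cpm value of each of the 10 genes in the 8 libraries, with the groups on the horizontal axis, points for libraries and a line for the mean of 2 libraries. Every vertical axis spans the same number of log2 units but has its own centre. The means of S100a10 and Lgals3 are higher at day 6 than at day 3 in both knockdowns, and those of Anxa3, Anxa1, Anxa5, S100a11 and S100a6 are lower.

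Levels of different genes were compared per kb of annotated exon, in CPM per kb. The length covers all annotated exons of a gene and not only the transcripts expressed, so the order depends on it. In CPM alone the mean of S100a6 was above that of Lgals1 in siNcor1 at day 3 (628 against 517 CPM), with overlap. Lgals1 ranked the highest of the 10 in all 4 groups, with mean levels of 573 and 824 CPM per kb at day 3 and 954 and 560.3 CPM per kb at day 6, siNcor1 first. In siNcor1 at day 3 its libraries overlapped with those of S100a6, the next in the order, and in the other groups they did not. S100a10 moved up in this order, from rank 6 in siNcor1 and rank 7 in the libraries labelled siOct4 at day 3 to rank 3 and rank 2 at day 6. In the libraries labelled siOct4 it rose from 132 to 330.2 CPM per kb, which placed it between Lgals1 and S100a6 with no overlap with either. At the low end, S100a4 and Anxa3 changed places, with Anxa3 at rank 9 at day 3 and at rank 10 at day 6 in both knockdowns, although they overlapped in those labelled siOct4 at day 3. Other neighbours whose libraries overlapped were S100a11 with Anxa2 and Anxa2 with Anxa5 in siNcor1 at day 3, and Anxa5 with Anxa2 and Anxa2 with Anxa1 in those labelled siOct4 at day 3. Anxa5 and Anxa1 overlapped in both knockdowns at day 6, and Lgals3 and S100a11 in those labelled siOct4.

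At day 3 the members did not separate the knockdowns past the threshold. Differences were tested with limma on the log2-cpm values of all tested genes, and a gene was called where its Benjamini-Hochberg adjusted p was under 0.05. Of the 10 members 0 were called, where the share of all tested genes was 1.07% (0.375% higher and 0.692% lower in those labelled siOct4). The voom test on the recovered reads also called 0 of the members. Without adjustment, 2 members had a p under 0.05, against 1460 of all 13866 genes. These were Lgals1, with a log2 difference of 0.52 ± 0.16 (SE) in the libraries labelled siOct4 against siNcor1 and an adjusted p of 0.203, and S100a4, with 0.57 ± 0.25 and an adjusted p of 0.432. For the 10 members the median difference was 0.20, with 8 above 0, against a median of -0.02 over all genes. The groups did not overlap in 6 of the 10, where this held for 43.4% of all genes. The count of 0 became 1, with Anxa1 at an adjusted p of 0.0400 or 0.0386, when replicate 1 or replicate 2 of those labelled siOct4 at day 6 was left out of the shared fit.

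At day 6, 8 of the 10 members were called lower in the libraries labelled siOct4 and 0 higher, where 30.7% of all tested genes were called in either direction and 18.6% were called lower. The median log2 difference of the 10 members was -0.72, against -0.03 over all genes. The groups did not overlap in 10 of 10, where the share of all genes was 64.7%. The called members span all 3 families, namely S100a4, S100a6, S100a11, Anxa1, Anxa2, Anxa3, Anxa5 and Lgals1. The count fell to 2 (S100a6 and Anxa3) without siNcor1 replicate 1 of day 6, and to 4 without siNcor1 replicate 2 of day 6. With all libraries kept it was 5 in a fit without the trend of the variance, in which S100a4, S100a11 and Anxa1 were not called (adjusted p = 0.0968, 0.103 and 0.134).

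The largest difference among the annexins was that of Anxa3, which was 2.40-fold lower in the libraries labelled siOct4 (log2 difference -1.26 ± 0.17, adjusted p = 6.17e-04). Anxa5 was lower by a log2 difference of -0.59 ± 0.14 (adjusted p = 0.00877) and Anxa2 by -0.51 ± 0.13 (adjusted p = 0.0124). Without siNcor1 replicate 1 of day 6 the adjusted p was 0.0762 for Anxa5 and 0.0813 for Anxa2, and without replicate 2 it was 0.0809 for Anxa2. Anxa1 was called at an adjusted p of 0.0497 with a log2 difference of -0.72 ± 0.25. With 1 library left out it was lost in 7 of 8 fits, all but that without replicate 2 of those labelled siOct4 at day 6. The value rested on the replicate labelled siOct4 with 109 CPM, since it was -0.19 (adjusted p = 0.362) without that library and -1.25 without the other.

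Among the S100 members S100a6 was 1.89-fold lower, with a log2 difference of -0.92 ± 0.18 (adjusted p = 0.00376). It and Anxa3 were the members called in all 19 alternative fits of this comparison. S100a11 had a log2 difference of -0.79 ± 0.25 (adjusted p = 0.0323) and S100a4 one of -0.73 ± 0.25 (adjusted p = 0.0455), and with 1 library left out in turn S100a11 was called in 5 of 8 fits and S100a4 in 3 of 8. Both calls were lost without either siNcor1 library of day 6 or replicate 1 of those labelled siOct4 at day 6, and that of S100a4 also without either siNcor1 library of day 3. S100a10 went the other way, at 0.31 ± 0.14 with a 95% interval from -0.01 to 0.62 and an adjusted p of 0.128, and was called (log2 difference 0.46, adjusted p = 0.0324) without replicate 1 of those labelled siOct4 at day 6.

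Of the galectins, Lgals1 was 1.70-fold lower (log2 difference -0.76 ± 0.16, adjusted p = 0.00557), and had an adjusted p of 0.0518 without siNcor1 replicate 1 of day 6. Lgals3 narrowly missed the threshold, at -0.47 ± 0.17 and an adjusted p of 0.0506. It passed in 8 of the 19 alternative fits, among them those without either replicate labelled siOct4 at day 3 (adjusted p = 0.0362 and 0.0367) or without replicate 2 of those labelled siOct4 at day 6 (adjusted p = 0.0192).

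**Figure D2:**
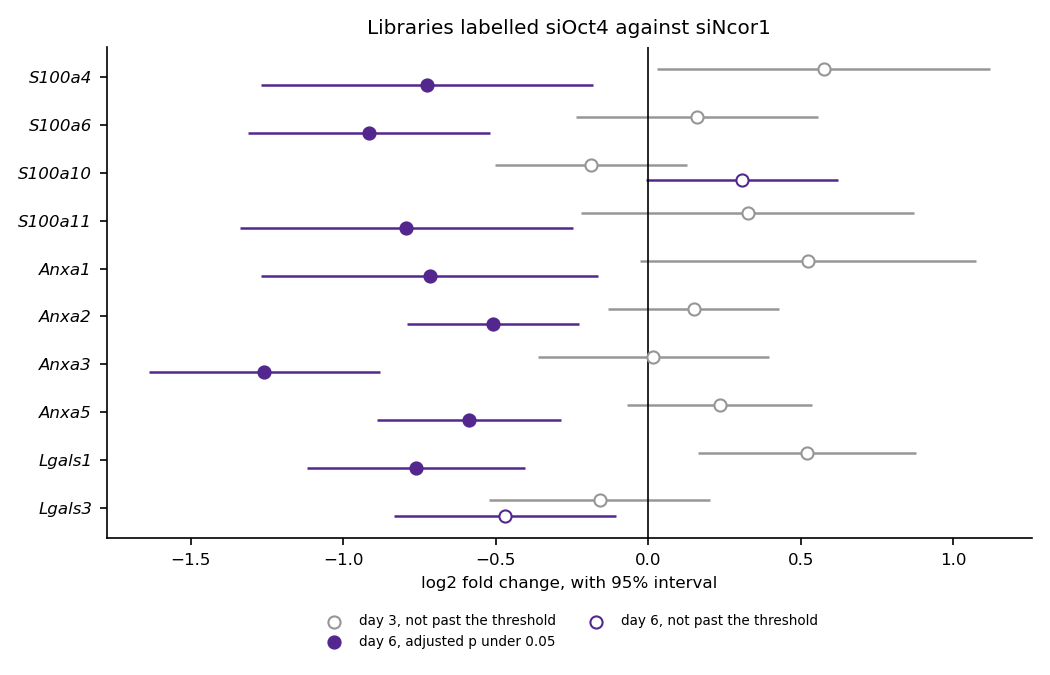
Log2 fold change of the 10 genes in the libraries labelled siOct4 against siNcor1, at day 3 in grey and at day 6 in purple, with 95% intervals from the fit and filled points for an adjusted p under 0.05. At day 6, 8 genes are filled and to the left of 0, and S100a10 is the gene to the right of 0.

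Among markers of cell types, the sums for fibroblast, epithelial, pluripotency and keratinocyte markers were lower in the libraries labelled siOct4 at day 6. Those for macrophage and endothelial markers overlapped between the knockdowns. The summed level of the 10 fibroblast markers was between 5908 and 6487 CPM in siNcor1 at day 6 and between 3383 and 3458 CPM in the libraries labelled siOct4. Col1a1 and Fn1 were the largest parts of this sum in every library. Of the 10, 7 were called lower (median log2 difference -0.82), where 18.6% of all tested genes were called lower. The 8 epithelial markers summed to between 703 and 739.7 CPM against between 312 and 349.7 CPM, and 6 of the 8 were called lower. The 6 pluripotency markers summed to between 96.3 and 105 CPM against between 41.4 and 47.0 CPM. Keratinocyte markers, 6 in number, summed to between 52.2 and 59.3 CPM against between 24.2 and 29.6 CPM. Most of this sum was Sfn, at 51.1 and 41.7 CPM against 25.0 and 19.2 CPM. Krt10 went the other way, at 1.57 and 1.51 CPM against 2.64 and 2.72 CPM. Macrophage markers, with 5 of the 9 on the list in the table, were at between 11.7 and 12.1 CPM against between 12.1 and 13.1 CPM in sum, and Ptprc, Itgam, Aif1 and C1qa were not in the table. The endothelial sum, over 4 of 5 markers without Tie1, was between 16.4 and 20.9 CPM against 16.7 CPM. On both days this sum was almost all Tek, at between 39.3 and 43.2 CPM at day 3 and between 15.8 and 19.7 CPM at day 6. Pecam1 and Cdh5 were under 1 CPM in every library. At day 3 the sums, siNcor1 first, were between 9050.5 and 9095 CPM against between 11964 and 14395 CPM for fibroblast markers, between 91.5 and 92.7 CPM against between 37.8 and 45.7 CPM for epithelial, between 7.55 and 7.77 CPM against between 1.35 and 3.54 CPM for pluripotency, between 7.19 and 9.09 CPM against between 8.06 and 9.11 CPM for keratinocyte, between 6.26 and 8.85 CPM against between 6.77 and 11 CPM for macrophage and between 40.6 and 44.3 CPM against between 41.6 and 41.9 CPM for endothelial markers. Of the 8 epithelial markers, 5 were already called lower in those labelled siOct4 at day 3, where 0.692% of all tested genes were. Of the 10 fibroblast markers 0 were called at day 3. From day 3 to day 6 in siNcor1 their sum was lower, but 5 were called higher and 3 lower. The shares of all tested genes were 13.8% and 20.9%. In those labelled siOct4, 2 were called higher and 6 lower over these days, where 22.2% and 30.5% of all were. Defining markers at 0 reads in both libraries of a group were Krt1 in those labelled siOct4 at day 3, Zfp42 in both groups of day 3 and Tdgf1 in those labelled siOct4 at day 3. The part of these cell types in the members' differences was not tested.

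From day 3 to day 6 in siNcor1, 4 of the 10 members were called higher (S100a4, S100a10, Lgals1 and Lgals3) and 2 lower (Anxa3 and Anxa5), where 34.8% of all tested genes were called, 13.8% higher and 20.9% lower. The median of the members was -0.01, against -0.07 over all genes, and the days did not overlap in 7 of 10, against 73.1% of all genes. Of the S100 genes, S100a10 rose 1.77-fold (log2 change 0.83 ± 0.14, adjusted p = 0.00138) and S100a4 by a log2 change of 0.74 ± 0.25 (adjusted p = 0.0376). S100a6 had a log2 change of -0.06 ± 0.18 (adjusted p = 0.815) and S100a11 one of -0.43 ± 0.25 (adjusted p = 0.208). Among the annexins Anxa3 fell 1.92-fold (log2 change -0.94 ± 0.17, adjusted p = 0.00186) and Anxa5 1.70-fold (-0.76 ± 0.14, adjusted p = 0.00169), while Anxa1 was at -0.51 ± 0.25 (adjusted p = 0.138) and Anxa2 at 0.04 ± 0.13 (adjusted p = 0.828). Both galectins rose, Lgals1 by a log2 change of 0.74 ± 0.16 (adjusted p = 0.00501) and Lgals3 by 0.47 ± 0.17 (adjusted p = 0.0452). The count of 6 was 3 without siNcor1 replicate 1 of day 6. S100a10, Anxa3 and Anxa5 were called with each library left out in turn, Lgals1 in 6 of 8 such fits (not without siNcor1 replicate 2 of day 3 or replicate 1 of day 6), and S100a4 and Lgals3 in 4 of 8, in none of those that lacked a siNcor1 library. S100a11 had a log2 change of -0.88 (adjusted p = 0.0255) without siNcor1 replicate 2 of day 3, and of 0.03 without replicate 1. Anxa1 was called without replicate 1 or replicate 2 of those labelled siOct4 at day 6 (adjusted p = 0.00474 and 0.00457).

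In the libraries labelled siOct4 most members fell over the same days. Of the 10 members 1 was called higher (S100a10) and 7 lower (S100a6, S100a11, the 4 annexins and Lgals1), where 52.7% of all tested genes were called, 22.2% higher and 30.5% lower. Higher genes were 42.1% of all those called, and 52.5% with library totals without Gm26917, under which the members' count was also 8. The median was -0.88, against -0.08 over all genes, and the days did not overlap in 8 of 10, against 74.8% of all genes. All 4 annexins fell, Anxa3 4.65-fold (log2 change -2.22 ± 0.17, adjusted p = 2.17e-06), Anxa1 3.37-fold (-1.75 ± 0.25, adjusted p = 1.47e-04), Anxa5 3.00-fold (-1.59 ± 0.14, adjusted p = 4.45e-06) and Anxa2 1.53-fold (-0.61 ± 0.13, adjusted p = 0.00184). Among the S100 genes S100a11 fell 2.93-fold (-1.55 ± 0.25, adjusted p = 3.21e-04) and S100a6 2.20-fold (-1.14 ± 0.18, adjusted p = 3.00e-04). S100a10 rose by a log2 change of 1.32 ± 0.14 (adjusted p = 2.08e-05), and S100a4 was at -0.56 ± 0.25 (adjusted p = 0.0795). Lgals1 fell by a log2 change of -0.54 ± 0.16 (adjusted p = 0.0149), and Lgals3 was at 0.16 ± 0.17 with a 95% interval from -0.20 to 0.53 (adjusted p = 0.432). With each library left out in turn, S100a6, S100a10, S100a11 and the 4 annexins remained called in all 8 fits, Lgals1 was lost (-0.35, adjusted p = 0.141) without replicate 1 of those labelled siOct4 at day 3, and S100a4 was called without replicate 2 of day 3 (-0.97, adjusted p = 0.00859) or of day 6 (-0.72, adjusted p = 0.0469).

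**Figure D3:**
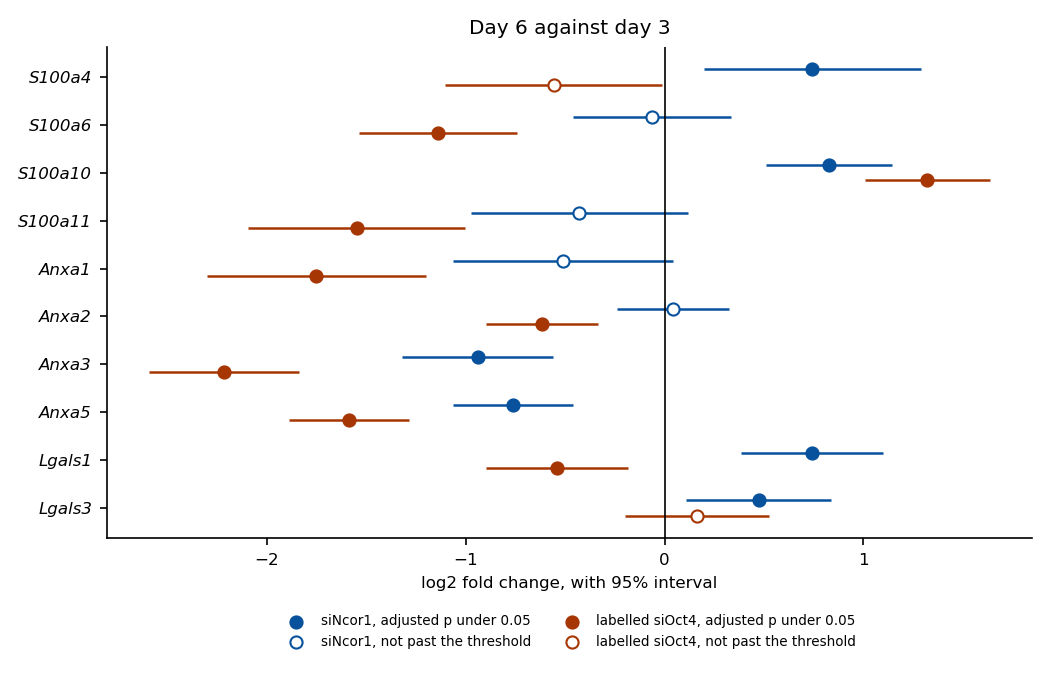
Log2 fold change between the days for the 10 genes, day 6 against day 3, in siNcor1 (blue) and in the libraries labelled siOct4 (brown), with 95% intervals from the fit and filled points for an adjusted p under 0.05. Of the genes filled in both, S100a10 is right of 0, Anxa3 and Anxa5 are left of 0, and Lgals1 is right of 0 in siNcor1 and left of 0 in those labelled siOct4.

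Whether the difference between the knockdowns changed from day 3 to day 6 was tested as an interaction. Of the 10 members 8 were called, all towards a lower level in the libraries labelled siOct4 at day 6, where 20.7% of all tested genes were called, 12.9% in that direction and 7.77% in the other. The median interaction of the 10 members was -1.10, against 0.01 over all genes. The values for S100a4 (-1.30 ± 0.35, adjusted p = 0.0245), Lgals1 (-1.28 ± 0.23, adjusted p = 0.00338) and Anxa3 (-1.28 ± 0.25, adjusted p = 0.00472) were close together, but they were built from different changes. S100a4 and Lgals1 rose in siNcor1, while Anxa3 fell in both knockdowns and fell further in those labelled siOct4. Anxa1 (-1.24 ± 0.36, adjusted p = 0.0307), S100a11 (-1.12 ± 0.35, adjusted p = 0.0432), S100a6 (-1.08 ± 0.26, adjusted p = 0.0141), Anxa5 (-0.82 ± 0.20, adjusted p = 0.0139) and Anxa2 (-0.66 ± 0.18, adjusted p = 0.0268) were the other members called. S100a10 was at 0.49 ± 0.20 (adjusted p = 0.107), and Lgals3 was at -0.31 ± 0.24 (adjusted p = 0.375). Anxa3 and Lgals1 were called in all 18 alternative fits. With all libraries kept, the count of 8 was 2 (Anxa3 and Lgals1) in a fit without the trend of the variance, where the other 6 had adjusted p-values from 0.0530 to 0.129. With 1 library left out it was 2 without siNcor1 replicate 2 of day 3, 5 without siNcor1 replicate 1 of day 3, 3 without replicate 1 of those labelled siOct4 at day 3, 3 without siNcor1 replicate 1 of day 6 and 4 without siNcor1 replicate 2 of day 6. Without replicate 1 of those labelled siOct4 at day 6 S100a10 was called, at 0.65 (adjusted p = 0.0256), S100a11 was not (adjusted p = 0.0709), and the count was 8.

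The annexin A2 and S100A10 proteins form a complex of matched subunits, but their genes did not change alike from day 3 to day 6. For every 100 reads of Anxa2 there were 26.5 and 27.9 reads of S100a10 in siNcor1 at day 3 against 22.6 and 20.6 in the pair labelled siOct4. By day 6 there were 47.8 and 46.0 in siNcor1 and 75.4 and 90.3 in those labelled siOct4. All 4 libraries of day 6 had a higher ratio than all 4 of day 3, and the order of the knockdowns was reversed between the days without overlap. The ratio is within a library and so does not depend on the library total, but it depends on both genes, of which Anxa2 fell in those labelled siOct4 and S100a10 rose in both knockdowns. The genes Anxa1 and S100a11, whose proteins also bind each other, both fell in the libraries labelled siOct4.

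**Figure D4:**
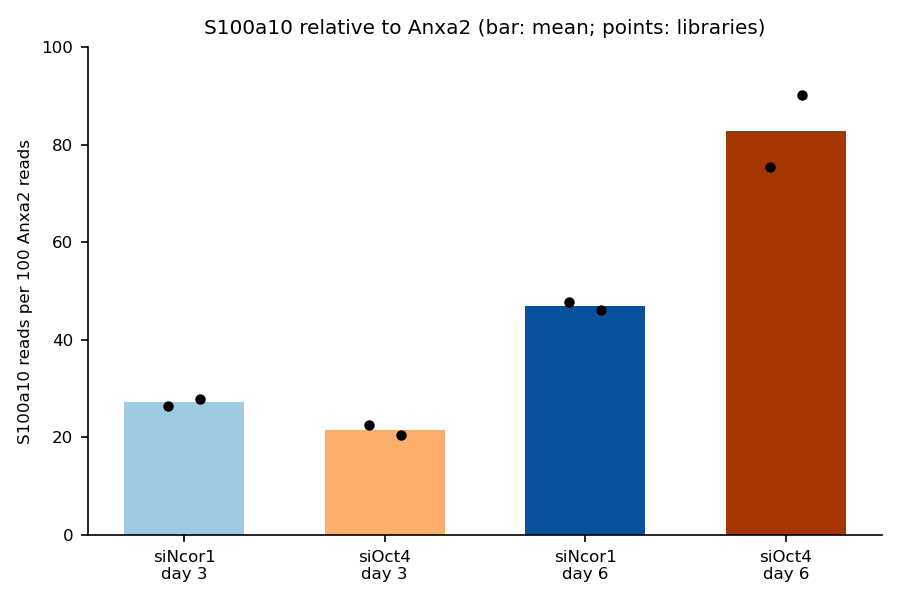
Reads of S100a10 for every 100 reads of Anxa2 in the 4 groups, with bars for the mean of 2 libraries and points for the libraries. The ratio lies between 20.6 and 27.9 at day 3, at 47.8 and 46.0 in siNcor1 at day 6 and at 75.4 and 90.3 in those labelled siOct4 at day 6.

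Summed over a family, the 4 annexins were at 1522 and 1383 CPM in siNcor1 at day 3, 1803 and 1675 CPM in those labelled siOct4 at day 3, 1179 and 1186 CPM in siNcor1 at day 6 and 709 and 879 CPM in those labelled siOct4 at day 6. The sum was lower at day 6 in both knockdowns, without overlap between the days. The 2 galectins were at 756 and 614 CPM, 1016 and 774 CPM, 1160.5 and 1025 CPM, and 648 and 699.9 CPM in the same order of groups. In siNcor1 the galectin sum was therefore higher at day 6, and in those labelled siOct4 it was lower. The 4 S100 genes were at 1045 and 808 CPM, 1138 and 874 CPM, 1063 and 959 CPM, and 682 and 862 CPM, with overlap between the days in siNcor1. In those labelled siOct4 the sum was lower at day 6, but the nearest libraries of the 2 days (874 and 862 CPM) were much closer than the replicates were. S100a10 rose within this sum.

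Most S100 genes of the table lie on chromosome 3 in separate stretches, and genes next to each other there moved in different ways. Counted from the first, S100a1, the genes up to S100a7a begin within 143 kb. S100a11 and S100a10 begin at 3009 and 3044 kb. S100a4 and S100a6 are 6.84 kb apart and S100a11 and S100a10 28.8 kb apart. In the libraries labelled siOct4 the neighbours S100a11 and S100a10 changed in opposite directions from day 3 to day 6, with log2 changes of -1.55 and 1.32. On the other side of S100a4 lies a group of S100 genes that are not members. Of these S100a16 rose in both knockdowns, from 9.53 and 10.3 CPM to 28.1 and 23.4 CPM in siNcor1 and from 5.15 and 4.94 CPM to 32.5 and 29.8 CPM in those labelled siOct4. S100a1 rose as well, by log2 changes of 1.29 (adjusted p = 0.00228) in siNcor1 and 0.91 (adjusted p = 0.00848) in those labelled siOct4. The fall of S100a6 from day 3 to day 6 in those labelled siOct4 was therefore not shared by all genes of its stretch. Against siNcor1 at day 6, most tested genes of the stretch were lower in those labelled siOct4, as S100a6 was. Their log2 differences were -0.32 for S100a1, -0.76 for S100a13, -0.98 for S100a14 and -0.73 for S100a4, of which S100a13 and S100a4 were called. S100a16 was higher, at 0.28, and was not called.

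**Figure D5:**
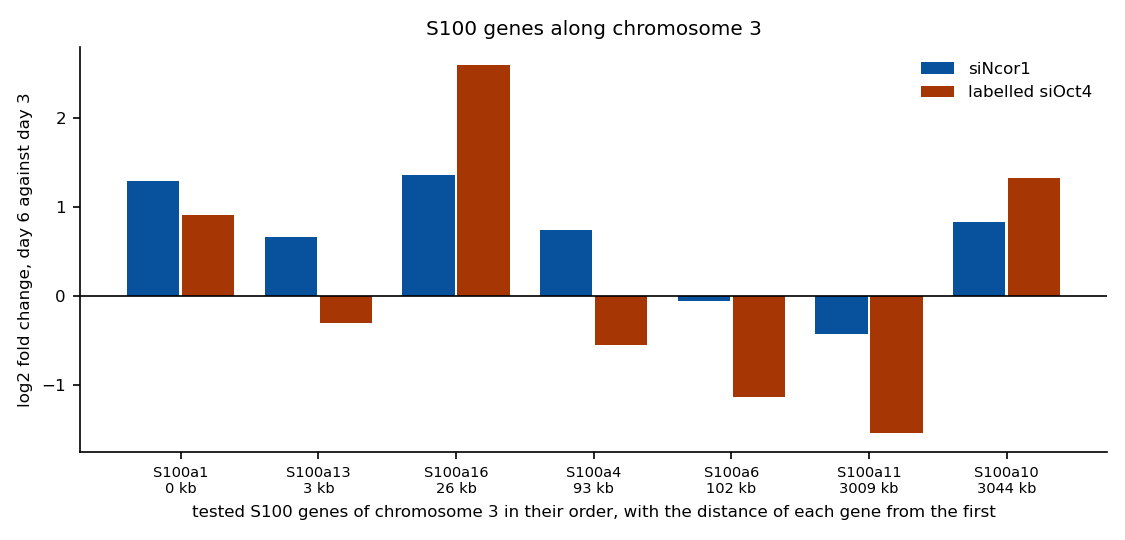
Log2 fold change from day 3 to day 6 of the tested S100 genes of chromosome 3, in their order along the chromosome and with the distance in kb from the first of them, in siNcor1 (blue) and in the libraries labelled siOct4 (brown). S100a14 is not drawn because its day 3 level was at most 4 reads in a library. In those labelled siOct4, S100a1, S100a16 and S100a10 are above 0 and the other 4 genes drawn are below it.

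The other S100, annexin and galectin genes of the table number 20, of which 15 were tested. At day 3, 1 was called lower in the libraries labelled siOct4 (S100a16, log2 difference -0.97 ± 0.16, adjusted p = 0.0193) and 0 higher. The shares of all tested genes were 0.692% lower and 0.375% higher. At day 6, 1 of the 15 was called higher (Anxa8) and 4 lower, where 12.1% of all tested genes were called higher and 18.6% lower, with a median of -0.28 where the 10 members had -0.72. The largest of these differences was that of Lgals9, a galectin with tandem sugar-binding domains, at 11.5 and 11.1 CPM in siNcor1 against 5.50 and 5.86 CPM in those labelled siOct4 (log2 difference -0.98 ± 0.17, adjusted p = 0.00214). S100a13 (-0.76, adjusted p = 0.0486, and 0.0920 without the trend) and Anxa4 (-0.74, adjusted p = 0.00373) were the next. From day 3 to day 6, 5 rose and 3 fell in siNcor1, where 34.8% of all tested genes were called, and 5 rose and 6 fell in those labelled siOct4, where 52.7% were.

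The other family genes that rose most over time are known from epithelia. Lgals7, a galectin of stratified epithelia, was at 0.866 and 0.580 CPM in siNcor1 and 0.406 and 0.253 CPM in those labelled siOct4 at day 3, and at 8.84 and 6.81 CPM against 6.76 and 6.03 CPM at day 6. It was called in both knockdowns (adjusted p = 4.83e-05 and 3.59e-06), from 14, 10, 6 and 2 reads at day 3. S100a14 was at 4 and 4 reads in siNcor1 at day 3 and 175 and 172 reads at day 6 (adjusted p = 1.61e-05), and at 2 and 0 reads against 47 and 124 reads in those labelled siOct4 (adjusted p = 2.85e-06), counts too low at day 3 for a fold. The summed epithelial markers were higher too, from between 91.5 and 92.7 CPM to between 703 and 739.7 CPM in siNcor1 and from between 37.8 and 45.7 CPM to between 312 and 349.7 CPM in those labelled siOct4. In each knockdown 7 of the 8 were called higher, where 13.8% of all tested genes were in siNcor1 and 22.2% in those labelled siOct4. The part of epithelial cells in these changes was not tested. In the interaction, Lgals9 (-1.50, adjusted p = 0.00203), S100a16 (1.24, adjusted p = 0.00375) and Anxa4 (-0.67, adjusted p = 0.0413) had the largest values among the called.

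Of 24 genes listed as partners of the members (proteins they bind, their receptors and the enzymes that make their ligands), 22 were in the table and tested, and Fpr1 and Fpr2, receptors of annexin A1, were not in it. At day 3, where 0.375% of all tested genes were called higher and 0.692% lower, 0 partners were called lower in the libraries labelled siOct4 and 1 higher. This was Dysf, which encodes the membrane repair protein dysferlin that associates with annexins, at 33.1 and 27.5 CPM in siNcor1 against 53.0 and 70.1 CPM (log2 difference 1.01 ± 0.19, adjusted p = 0.0241). At day 6, 2 partners were called higher and 12 lower, where 12.1% and 18.6% of all tested genes were, with a median of -0.61. Dysf was then lower, at 25.2 and 26.1 CPM against 7.82 and 10.8 CPM (-1.47 ± 0.19, adjusted p = 4.56e-04), so its order between the knockdowns was opposite on the 2 days.

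Plau, which encodes the urokinase that activates plasminogen, a ligand of the annexin A2 complex, was at 9.91 and 8.57 CPM in siNcor1 against 3.59 and 5.18 CPM in those labelled siOct4 at day 6 (log2 difference -1.07 ± 0.19, adjusted p = 0.00232). Ager, which encodes the receptor RAGE that binds several S100 proteins, was among those higher, at 2.56 and 2.35 CPM against 7.61 and 6.28 CPM (1.44 ± 0.29, adjusted p = 0.00388). From day 3 to day 6, 6 partners rose and 6 fell in siNcor1, where 34.8% of all tested genes were called, with the largest changes those of Lgals3bp, a secreted ligand of galectin-3 (1.66 ± 0.14, adjusted p = 1.91e-05), Plau (-1.23 ± 0.19, adjusted p = 7.29e-04) and Dlc1, a protein that S100A10 binds (-1.12 ± 0.14, adjusted p = 1.66e-04). In those labelled siOct4, 5 rose and 10 fell, where 52.7% of all were called, led by Plau (-2.91), Dysf (-2.71) and Ager (2.56). The interaction was called for 16 of the 22, 2 of them higher and 14 lower, where 7.77% of all tested genes were called higher and 12.9% lower, with a median of -0.73, and its largest values were those of Dysf (-2.48), Ager (1.89) and Plau (-1.68).

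The members also differed in which genes their levels followed. Likeness was measured as the root mean square difference of log2-cpm over the 8 libraries after each gene's mean was subtracted, and the 2 most like of all tested genes were taken. S100a4 was most like Lgals1 (0.137), another member, and Emp3 (0.184), and Lgals1 was most like Emp3 (0.0866) and Dap (0.0916). S100a10 was most like Rpl23, a ribosomal protein gene (0.0557), and Ttc5 (0.0604), and its nearest member, Lgals3, was much farther away (0.475). For 6 of the other 9 members S100a10 was the farthest. Anxa2 was most like Tmbim6 (0.0383) and Lrrc8d (0.0540), Anxa5 most like Ppfibp1 (0.0556) and Msn, which encodes the cortical linker moesin (0.0847), Anxa1 most like Tbc1d8b (0.119) and Pls3 (0.143), and Anxa3 most like Plagl1 (0.108) and Rcan2 (0.111). S100a6 was most like Nagk (0.112) and Atp6v0d1 (0.114), and Lgals3 most like Dgat1 (0.0952) and Rab9 (0.0953).

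S100a11 was most like Gm7665 (0.138), a processed pseudogene, followed by Plekho1 (0.191). Of the 40-base words of the S100a11 transcripts, 26.3% were also in Gm7665 and 44.1% in Gm12854, another processed pseudogene, so reads of S100a11 can be split among them and its level is uncertain. The reads counted for Gm7665 (between 13 and 69 a library) and Gm12854 (between 4 and 20) were few beside those of S100a11 (between 369 and 2273). Gm42674, a model annotated over S100a4 on the same strand, held 48.3% of the words of S100a4, and was not in the table, so the level of S100a4 is uncertain as well. It rested on between 83 and 287 reads a library. Anxa2 and Anxa3 shared 1.62% and 2.07% of their words with overlapping models, and for the other 6 members no shared word was found in another gene.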

How the data were processed

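Reads of 8 RNA-seq libraries (2 biological replicates of 4 groups) were aligned to mm10 by the authors, and STAR 2.5.2b and edgeR 3.20.9 are named in the submitters' processing notes. The deposited values are log2-cpm per gene, made by the authors with edgeR. The counting tool, its annotation and its use of strand are not given in the sources used here, so reads of overlapping genes on opposite strands could not be told apart. The values were converted back to reads, and 100% came out whole within 0.1 read. The floor of detection was taken as 3 reads, which covers counting error only.

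The 10 members, the gene lists and the tests were chosen with earlier results of these data known. The 13866 of 18990 genes whose mean was 1 CPM or more were fitted in R 4.3.3 with limma 3.58.1. The fit used the log2 values as deposited, 1 mean for each of the 4 groups and a variance that depends on the mean level, and p-values were adjusted by Benjamini-Hochberg with a threshold of 0.05. Fold changes are on the log2-cpm scale, which holds a small constant that understates changes of low genes. SEs and 95% intervals come from this fit. Symbols were matched to GENCODE M21, and promoter windows to RefSeq on GRCm38.p6. The fit was also run on simulated reads with a fixed spread and fewer changed genes than were called at day 6. That run does not show how the fit performs on these data.

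The genes named are the 10 members, up to 3 other family genes and 3 partner genes per comparison with the largest called change, the 2 genes most like each member, and Ncor1 and Pou5f1. S100a1 and Anxa8, and the genes named as examples of markers or pseudogenes, were chosen after their values were seen. Alternatives were a fit without the trend, 3 other scalings, 2 filters, 2 pseudocounts, the replicate number as a block, voom on the recovered reads, only the groups compared, and each library left out. Figures were drawn with matplotlib 3.10.9.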

Additional observations from a re-analysis of the deposited data

Results flagged for a closer look

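For 8 of the 10 members the difference between the knockdowns changed from day 3 to day 6, by a limma test of that change itself across all genes. The change was -1.30 for S100a4 (adjusted p = 0.0245), -1.08 for S100a6 (adjusted p = 0.0141), -1.12 for S100a11 (adjusted p = 0.0432), -1.24 for Anxa1 (adjusted p = 0.0307), -0.66 for Anxa2 (adjusted p = 0.0268), -1.28 for Anxa3 (adjusted p = 0.00472), -0.82 for Anxa5 (adjusted p = 0.0139) and -1.28 for Lgals1 (adjusted p = 0.00338), all on the log2 scale. Among all tested genes 20.7% were called in this test. Only those for Anxa3 and Lgals1 passed in all 18 alternative fits.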

How the results depend on the processing

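Without the trend of the variance, 5 members were called at day 6 in place of 8, and 2 in the interaction in place of 8. Under the other settings that keep all libraries, each count of called members stayed within 1.5 times its value. With 1 library left out in turn, the counts ranged from 0 to 1 at day 3, 2 to 9 at day 6, 3 to 7 from day 3 to day 6 in siNcor1, 7 to 9 in the libraries labelled siOct4 and 2 to 8 in the interaction. Such fits hold 1 library in a group, which is assumed to vary like the others. Changes of sign were seen in members that were not called in these comparisons. With library totals without Gm26917 they were S100a6 in siNcor1 over time (0.0135) and Anxa3 at day 3 (-0.0253), and with quantile normalization Anxa2 in siNcor1 over time (-0.0287). With 1 library left out, S100a6 at day 3 ranged from -0.0383 to 0.36 (-0.0383 and -0.0216 where it turned) and in siNcor1 over time from -0.26 to 0.13 (0.13 and 0.0199), S100a11 at day 3 from -0.13 to 0.78 and in siNcor1 over time from -0.88 to 0.0250, Anxa3 at day 3 from -0.22 to 0.26 (-0.22 and -0.0185), and Lgals3 at day 3 from -0.39 to 0.0677 and in those labelled siOct4 over time from -0.0649 to 0.39. Their cause was not tested. Leaving Gm26917 out of the totals shifted the median of all genes by 0.13 in those labelled siOct4 over time, and moved no other comparison by over 0.1. Over all tested genes, 148 were called at day 3, but 43 without the trend, 81 with a minimum of 10 CPM, and 3 to 375 with 1 library left out (3 without either siNcor1 day 3 library). At day 6 the 4251 called were 2640 and 1398 without siNcor1 day 6 replicates 1 and 2. Over time in siNcor1 the 4819 called were 2360 without siNcor1 day 3 replicate 2, and 2572 and 2980 without siNcor1 day 6 replicates 1 and 2. In the interaction the 2867 called were 1009 without siNcor1 day 3 replicate 2, 1377 without replicate 2 of those labelled siOct4 at day 3, and 1767 and 1189 without siNcor1 day 6 replicates 1 and 2. The interaction could not be fitted on only the groups compared, since it uses all 4.

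The replicate numbers are shared between groups, but the deviations of same-numbered libraries correlated between -0.04 and 0.28 over the 6 pairs of groups, over 0.1 in 3 of them, and the numbers were not taken to pair the libraries. With the replicate block the counts were 0 at day 3, 9 at day 6 (Lgals3 was added, adjusted p = 0.0370), 6 and 8 over time, and 8 in the interaction. Precision is limited by 2 libraries per group and, for S100a4, by its few reads.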
